A study of Mus musculus with 12 samples.

Results

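The mitochondrial solute carriers of the Slc25 family were followed through kidney cortex RNA of mice with and without a model of NASH (non-alcoholic steatohepatitis), a disease in which the liver stores fat and is inflamed. Members were taken by symbol: every gene whose symbol is Slc25a followed by a number. The rule found 37 members among 11614 genes. A list of 48 Slc25 names was compared with the files, and 11 of them were not analysed here, among them Slc25a2, Slc25a18, Slc25a29 and Slc25a31.

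The 12 libraries came from 4 groups of 3, all of strain C57BL/6J. NASH mice were given a Western diet (WD) together with CCl4, carbon tetrachloride, which damages the liver. Control mice were given normal diet together with corn oil. The 24 week groups held 10 NASH and 8 control mice and the 12 week groups 6 NASH and 6 control mice, with equal numbers of males and females in each. Diet, CCl4 and liver disease differ together between NASH and control mice and cannot be told apart. The labels do not say which animals stand behind a library, whether animals were pooled, of which sex they were or at what hour the kidneys were taken, so each p below measures the spread between these libraries.

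Slc25 carriers are small proteins of, mostly, the inner mitochondrial membrane. Each moves particular metabolites, nucleotides, cofactors or ions across it, usually by exchanging one for another, and so links the chemistry of the cytosol to that of the matrix. The proximal tubule, which makes up most of the kidney cortex, lives mainly on oxidative metabolism and is rich in mitochondria. The carriers are made in the cytosol and inserted into the inner membrane by the TIM22 import route. The files report RNA only, and transport was not measured.

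The values are log2 read numbers after scaling by 1 factor per library, called log2 values below, so a difference of 1 is a doubling on the linear scale. Estimated depth ran from 7170000 reads in NASH replicate 2 at 12 weeks to 14100000 reads in control replicate 2 at 24 weeks. At 12 weeks every NASH library was below every control library in depth. For replicates 1, 2 and 3 it was 12400000, 7170000 and 8230000 reads in NASH and 12700000, 13700000 and 13100000 in control libraries. The lowest log2 value of any member in any library was 6.30, or 78.9 scaled reads, and all 37 members passed both filters on low values that were tried. The tissue label was met by proximal tubule markers: the sodium-phosphate transporter Slc34a1 lay between 16.33 and 16.93 and the endocytic receptor Lrp2 between 14.58 and 15.28 in every library. Replicate 1 of all 4 groups stood apart from replicates 2 and 3. Xist is expressed from the inactive X chromosome. It was between 10.60 and 11.54 in the 4 replicate 1 libraries and between 2.97 and 4.86 in the 8 others. The Y-linked Ddx3y went the other way, between 2.48 and 4.25 in replicate 1 and between 8.95 and 9.62 in the others. By these genes the replicate 1 libraries read as female and the others as male, which the labels do not state. The summed podocyte and endothelial markers reached a log2 of 13.93 to 14.27 in replicate 1, against 12.49 to 13.41 elsewhere. Hepatocyte markers went the other way, with sums of 13.17 to 13.49 in replicate 1 and 14.95 to 15.85 elsewhere. Sums of loop, distal tubule and collecting duct markers were 16.00 to 16.87 in replicate 1 and 15.00 to 16.15 elsewhere, with some overlap. Control replicate 1 at 24 weeks also held the highest sum of 12 adipocyte markers, a log2 of 15.02 against 9.80 to 11.99 in the 11 other libraries. In such bulk samples, fewer cells of a type and less RNA per cell cannot be told apart.

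With the replicate number as a block, the fit at 12 weeks called 3 members lower in NASH than in control kidneys: the uncoupling-protein-like Slc25a30, the ornithine carrier Slc25a15 and the pyrimidine nucleotide carrier Slc25a36. The fit without the block called 0 members, and no fit over all 12 libraries called any at 24 weeks. These 3 are shown first, by the 250 bases before the gene start, so that their promoters can be compared. The sequences come from RefSeq on build GRCm38.p6 and are written 5′ to 3′ on the coding strand, which is the minus strand for all 3. Capitals mark matches to the motifs named below.
Slc25a30, chr14:75787038-75787287: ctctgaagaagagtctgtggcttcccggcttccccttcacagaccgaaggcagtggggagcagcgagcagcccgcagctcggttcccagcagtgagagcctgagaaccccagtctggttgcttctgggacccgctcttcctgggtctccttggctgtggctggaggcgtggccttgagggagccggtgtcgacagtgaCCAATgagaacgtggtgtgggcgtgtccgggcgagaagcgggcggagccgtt
Slc25a15, chr8:22398622-22398871: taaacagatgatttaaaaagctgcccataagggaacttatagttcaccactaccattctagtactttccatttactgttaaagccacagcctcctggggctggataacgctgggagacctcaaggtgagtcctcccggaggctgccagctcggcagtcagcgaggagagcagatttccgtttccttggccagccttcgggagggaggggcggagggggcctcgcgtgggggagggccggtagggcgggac
Slc25a36, chr9:97111042-97111291: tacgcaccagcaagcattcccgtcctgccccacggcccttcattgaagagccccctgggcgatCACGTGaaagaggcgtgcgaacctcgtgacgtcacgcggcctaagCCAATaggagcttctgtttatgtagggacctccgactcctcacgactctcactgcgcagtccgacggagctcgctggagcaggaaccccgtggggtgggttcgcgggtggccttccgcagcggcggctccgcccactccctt

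The window searched ran from 250 bases before to 50 bases after the start, on both strands. A CCAAT box, searched as CCAAT, began at position -52 from the start of Slc25a30 and at -142 from that of Slc25a36, where -1 is the base before the start. An E-box, searched as CACGTG, began at -187 from the start of Slc25a36. The other 3 motifs, a D-box (TTATGTAA), a nuclear receptor half-site (AGGTCA) and an ETS site (CCGGAAG), had no match in these windows, and Slc25a15 had no match to any of the 5. None of the motif matches overlapped. Of the 37 members 29 had a RefSeq promoter entry, and 23 promoters began at the start that the deposited files use. CCAAT was in 13 of these 23 and in 37.4% of all 32851 promoters, and CACGTG in 5 of the 23 and in 7.15% of all. AGGTCA was in 2 of the 23 and 16.3% of all, CCGGAAG in 1 and 8.86%, and TTATGTAA in 0 and 0.938%. A match is a description of the letters, not of binding.

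By level, nucleotide and phosphate carriers led the family. Per kilobase of the transcript length in the files, Slc25a5, the main ADP/ATP exchanger of dividing and many other tissues, averaged 14233 scaled reads per kilobase over the 12 libraries, from 12732 to 16095. The phosphate and copper carrier Slc25a3 followed with 7429, from 5931 to 9114, then the glutathione carrier Slc25a39 with 5787, from 3649 to 6686. The ADP/ATP exchanger Slc25a4, best known from heart and muscle, averaged 4029, from 2783 to 5433, and the dicarboxylate carrier Slc25a10 1886, from 974 to 2790. Slc25a5 did not overlap with the next in order in any library, whereas the ranges of the next neighbours in this order overlapped, those of Slc25a4 and Slc25a10 only just.

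The lowest levels belonged to a glutathione carrier, a folate and FAD carrier and an ATP-magnesium/phosphate carrier. Slc25a40 averaged 60.9 scaled reads per kilobase, from 42.1 to 79.9, Slc25a32 averaged 39.6, from 27.2 to 71.1, and Slc25a24 averaged 33.6, from 26.6 to 47.1. These 3 ranges overlapped. Taken as a whole the family held 0.578% to 0.699% of a library's scaled total, and its top 5 members 57.1% to 63.0% of the family. Reads of close paralogs, such as Slc25a4 and Slc25a5 or Slc25a12 and Slc25a13, may have been split between them by the counting.

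**Figure D1:**
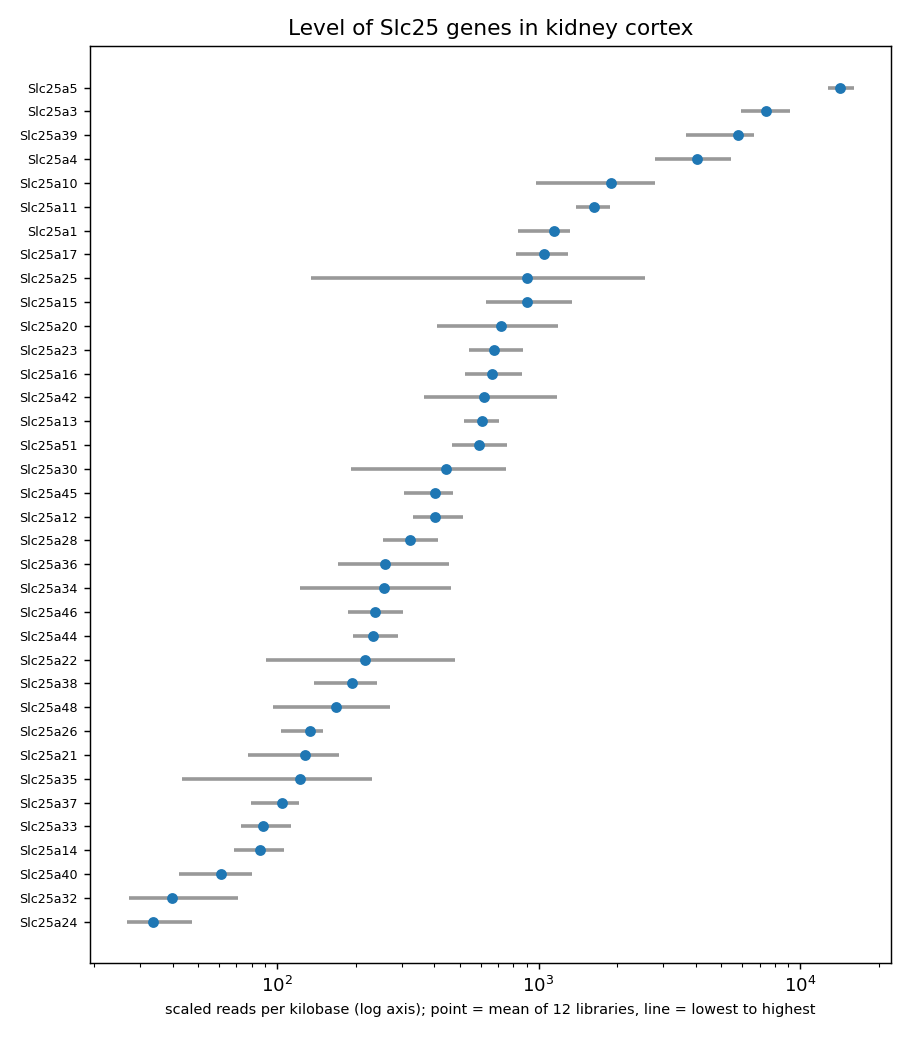
Level of 36 of the 37 members in scaled reads per kilobase of transcript on a log axis, highest at the top. Points are means over 12 libraries and lines run from the lowest to the highest library; Slc25a5 leads at 14233 and Slc25a24 is lowest at 33.6, and the line of Slc25a25 is the longest.

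Members differed widely in how steady they were. The highest minus the lowest log2 value over the 12 libraries was 0.34 for Slc25a5, 0.43 for the oxoglutarate carrier Slc25a11 and 0.44 for the aspartate-glutamate carrier Slc25a13. It was 4.24 for Slc25a25, a calcium-regulated ATP-magnesium/phosphate carrier, 2.42 for Slc25a35, 2.39 for the glutamate carrier Slc25a22 and 1.96 for Slc25a30. In 14 of the 37 members the range was above 1. Slc25a5 was both the highest and the steadiest member, and the 4 most variable ones ranked 9 or lower by level per kilobase.

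**Figure D2:**
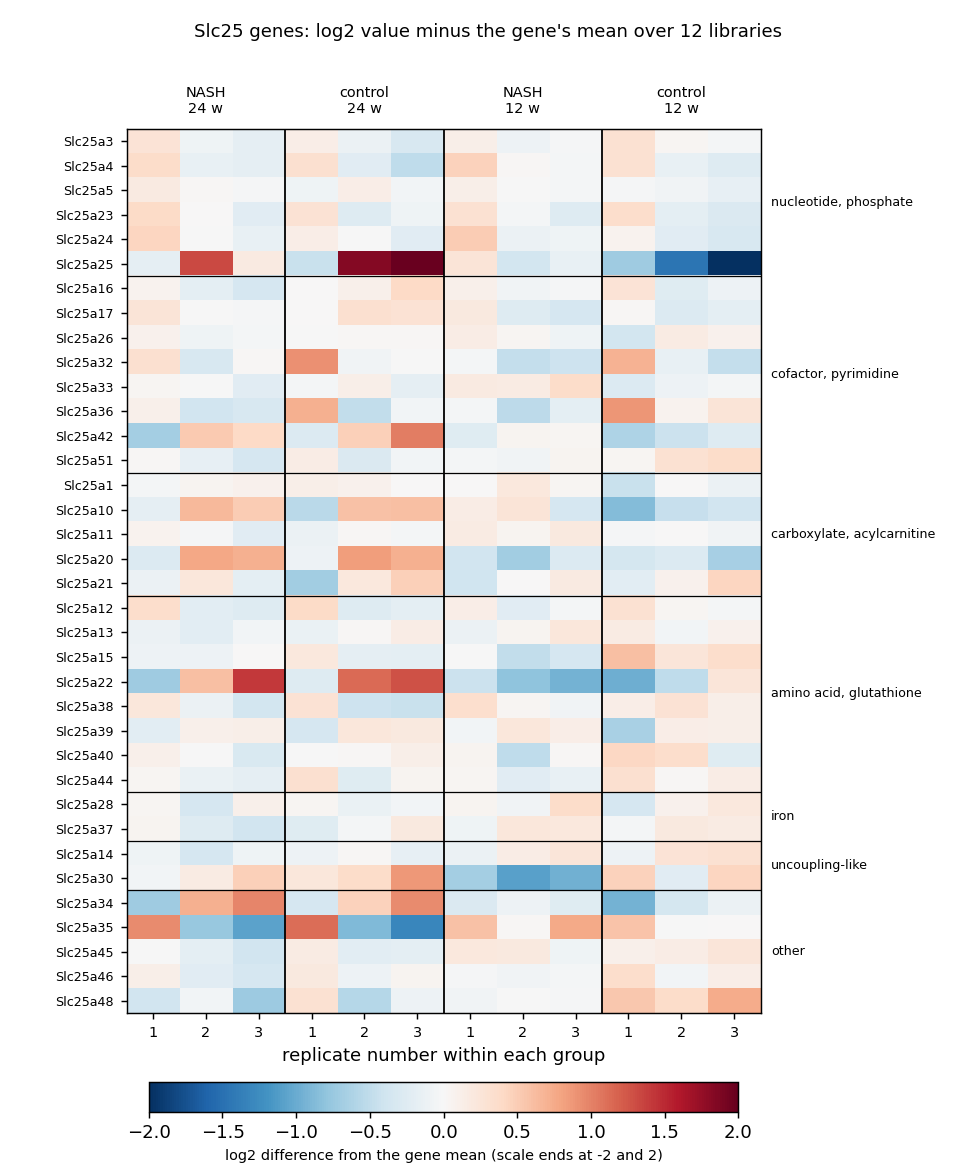
Log2 value of 36 of the 37 members minus the member's mean over 12 libraries, with members grouped by role down the page and libraries by group across it (NASH at 24 weeks, control at 24 weeks, NASH at 12 weeks, control at 12 weeks, replicates 1 to 3 in each). Red is above and blue below the member's mean; Slc25a25, Slc25a22, Slc25a34, Slc25a35 and Slc25a30 show the strongest colours.

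At 12 weeks, Slc25a30, Slc25a15 and Slc25a36 were lower in NASH than in control kidneys in the fit with the replicate number, and no member was called in the fit without it. Fits were made with limma, without and with the replicate number, over all 12 libraries, with p adjusted by Benjamini-Hochberg over 11614 genes and a call at an adjusted p under 0.05. Without the replicate number, 0 members were called, where 0.0517% of all genes were. There, 5 members had an unadjusted p under 0.05, with adjusted p of 0.176 to 0.343 (limma). The share of all genes with such an unadjusted p is not given here, so these 5 are not read as an excess. With the replicate number as a block, which compares same-numbered libraries, 3 members were called lower and 0 higher. In that fit 9.85% of all genes were called lower and 3.01% higher, so 3 of 37 is near the share among all genes.

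Slc25a30, also known as kidney mitochondrial carrier protein 1, is related to the uncoupling proteins and lies on mm10 chromosome 14, 75761999 to 75787037, minus strand. Its log2 values were 8.77, 8.36 and 8.49 in the NASH libraries and 9.91, 9.23 and 9.88 in the control libraries at 12 weeks, for replicates 1, 2 and 3. The groups did not overlap, and NASH was the lower in each same-numbered pair, by -1.14, -0.87 and -1.39. The means were 8.54 ± 0.21 in NASH and 9.67 ± 0.39 in control mice (SD, n = 3 each), a log2 change of -1.13 or 2.19-fold lower. Its SE was 0.18 with the block (limma, adjusted p = 0.00859) and 0.23 without it (limma, adjusted p = 0.176).

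Slc25a15 carries ornithine, and citrulline in exchange, across the inner membrane and is known for its part in the urea cycle of the liver. It lies on chromosome 8, 22375550 to 22398621, minus strand. Its log2 values at 12 weeks were 11.56, 11.08 and 11.24 in NASH and 12.18, 11.81 and 11.93 in control libraries. All NASH libraries were below all control libraries, with pair differences of -0.62, -0.73 and -0.69, the most even of the 3 carriers. The means were 11.29 ± 0.24 in NASH and 11.97 ± 0.19 in control mice (SD, n = 3 each), a log2 change of -0.68 or 1.60-fold lower. The SE was 0.11 with the block (limma, adjusted p = 0.00859) and 0.16 without it (limma, adjusted p = 0.223).

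Slc25a36 brings pyrimidine nucleotides into mitochondria, where they serve DNA and RNA synthesis, and lies on chromosome 9, 97077011 to 97111041, minus strand. Its log2 values at 12 weeks were 9.52, 9.03 and 9.36 in NASH and 10.44, 9.62 and 9.81 in control libraries. The groups did not overlap, but NASH replicate 1 and control replicate 2 lay close together. The pair differences were -0.92, -0.59 and -0.45, and the means 9.30 ± 0.25 in NASH and 9.96 ± 0.43 in control mice (SD, n = 3 each). The log2 change was -0.65, or 1.57-fold lower, with an SE of 0.14 with the block (limma, adjusted p = 0.0189) and 0.30 without it (limma, adjusted p = 0.348).

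With the block, the calls of Slc25a30 and Slc25a15 held in all 12 fits that left out 1 library, with adjusted p up to 0.0443 for Slc25a30 and up to 0.0431 for Slc25a15. The call of Slc25a36 held in 8 of the 12. It was lost without NASH replicate 1 and without each of control replicates 1, 2 and 3 at 12 weeks, where its adjusted p reached 0.0778. Of the compared libraries, only NASH replicates 2 and 3 could each be left out with the call of Slc25a36 kept. The 12 fits include those that left out a library not from 12 weeks. Such fits kept every compared library and are a weaker check of these calls. The calls of Slc25a30 and Slc25a15 also held without each compared library. In replicates 2 and 3 alone, with no block, Slc25a30 (log2 change -1.13, limma, adjusted p = 0.0287) and Slc25a15 (-0.71, adjusted p = 0.0102) were also called, and Slc25a36 was not (-0.52, adjusted p = 0.107). In that fit 2.5% of all genes were called lower and 0.818% higher. None of these 3 genes shares exonic bases with another annotated gene.

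**Figure D3:**
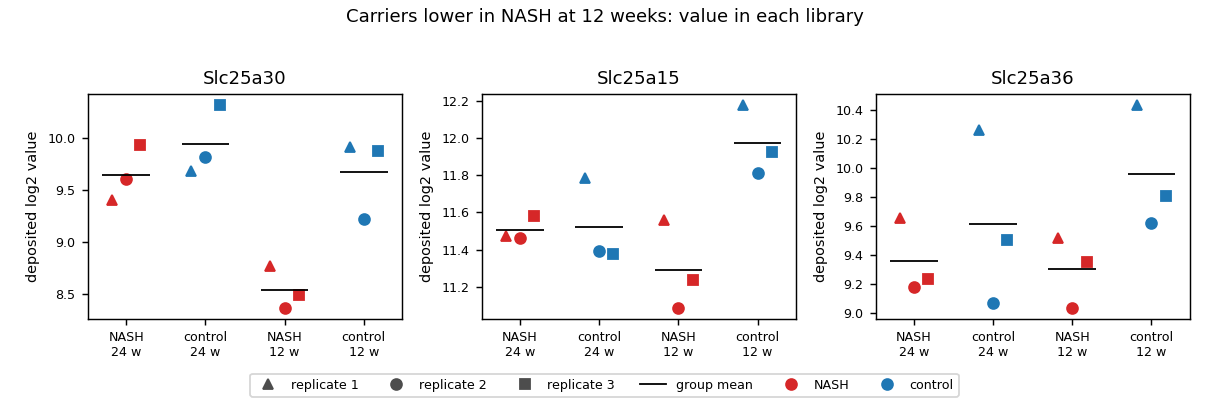
Log2 value of Slc25a30, Slc25a15 and Slc25a36 in each library; marker shapes give the replicate number, red is NASH, blue is control and lines are group means. At 12 weeks every NASH library lies below every control library in all 3 panels, and at 24 weeks the groups overlap.

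Among the other members at 12 weeks, 2 more were named for a small p without the block. Slc25a48, reported to import choline in human cells, was at 7.85, 7.90 and 7.90 in NASH and 8.46, 8.28 and 8.66 in control libraries, with no overlap (log2 change -0.59, SE 0.23, limma, adjusted p = 0.108 with the block and 0.305 without). Slc25a33, a second pyrimidine nucleotide carrier, stood on the other side of zero from Slc25a36. It was at 7.55, 7.52 and 7.73 in NASH and 7.09, 7.26 and 7.33 in control libraries, again with no overlap (0.37, SE 0.16, limma, adjusted p = 0.136 with the block and 0.325 without). Neither passed the test. The exons of Slc25a33 share 281 bases with an antisense gene on the other strand, and whether the counting used strand is not stated.

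Counting all 37, 5 members had every NASH library above every control library at 12 weeks (Slc25a10, Slc25a11, Slc25a25, Slc25a33 and Slc25a42), where 8.14% of all genes did. Another 4 had every NASH library below (Slc25a15, Slc25a30, Slc25a36 and Slc25a48), where 14.4% of all genes did. The median change was 0.01 over the members and -0.08 over all genes, and 19 of the 37 members were above 0, as were 40.4% of all genes. With median-of-ratios scaling these medians were 0.10 over the members and 0.01 over all genes, and after removal of GC and length trends -0.06 over the members and -0.10 over all genes. By role and in the deposited scaling, 5 of 6 nucleotide and phosphate carriers, 6 of 9 cofactor and pyrimidine carriers, 3 of 5 carboxylate and acylcarnitine carriers and both iron carriers had a positive change. Of the amino acid and glutathione carriers 7 of 8 had a negative change, as did both uncoupling-like carriers, and of the 5 remaining members 2 were positive. With median-of-ratios scaling 5 of the 8 amino acid and glutathione carriers and 1 of the 2 uncoupling-like carriers were negative. After removal of GC and length trends 2 of 6 nucleotide and phosphate carriers, 4 of 9 cofactor and pyrimidine carriers, 2 of 5 carboxylate and acylcarnitine carriers and 1 of 2 iron carriers were positive, so these counts by role depend on the processing.

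Slc25a25 had the largest change of all members at 12 weeks. Its log2 values were 11.43, 10.80 and 11.02 in NASH and 10.46, 9.70 and 8.91 in control libraries, a log2 change of 1.39 with an SE of 0.59 with the block (limma, adjusted p = 0.141) and 0.63 without it (limma, adjusted p = 0.343). The 3 NASH libraries lay together and above the 3 spread control libraries. Of the alternatives run, it passed the test in replicates 2 and 3 alone (1.60, limma, adjusted p = 0.0291) and, with the block, without control replicate 1 at 24 weeks (1.39, limma, adjusted p = 0.0460). With the block and 1 library left out the change ran from 0.91 to 2.08, the highest being without control replicate 1 at 12 weeks (limma, adjusted p = 0.0576). The exons of Slc25a25 share 379 bases with Naif1 on the other strand.

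Genes of the circadian clock, the daily timer of gene expression, moved in the same comparison. With the block, 8 of 17 measured clock genes were higher and 4 lower in NASH kidneys at 12 weeks. Dbp, an output activator of the clock, was at 9.87, 10.25 and 10.07 in NASH and 5.01, 5.19 and 3.54 in control libraries at 12 weeks, and Arntl, which drives the clock, at 7.83, 7.54 and 7.55 in NASH and 9.42, 9.12 and 9.30 in control libraries. Both genes separated the groups with wide gaps. The erythroid markers Hba-a1 and Alas2 and 5 others were all positive too, though none of the 7 was called, with a median log2 change of 0.86 for the list and sums of 10.95 to 12.95 in NASH and 10.58 to 10.97 in control libraries. Among 13 markers of the loop of Henle, distal tubule and collecting duct, 1 was called higher and 3 lower, with sums of 15.06 to 16.28 in NASH and 15.11 to 16.00 in control libraries. Among 10 hepatocyte markers, 2 were called higher and 1 lower, with sums of 13.17 to 15.85 in NASH and 13.41 to 15.41 in control libraries. Of 12 adipocyte markers 11 were positive and none was called, with a median log2 change of 1.33 and sums of 10.47 to 11.99 in NASH and 10.77 to 11.43 in control libraries. Of 12 proximal tubule markers 9 were negative (median log2 change -0.20), as were 7 of 9 podocyte and endothelial markers (-0.27). Of 8 macrophage markers 6 were positive (0.31), and none of these 3 lists had a call. The sums of all these marker lists, the erythroid one included, overlapped between the groups over all 3 replicates. Within replicates 2 and 3 the hepatocyte sums did not, at 15.85 and 15.53 in NASH and 14.95 and 15.41 in control libraries. Nor did the podocyte and endothelial sums, at 12.87 and 12.82 in NASH and 13.41 and 13.15 in control libraries. In replicate 1 both lists had the opposite order, 13.17 against 13.41 and 14.06 against 13.93. The part of the clock genes and of these cell type markers in the changes of Slc25a30, Slc25a15 and Slc25a36 was not tested.

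Genes around the carriers were also compared at 12 weeks with the block, where 3.01% of all genes were higher and 9.85% lower. Of 4 measured carriers without an Slc25 symbol none was called, and Ucp2, an uncoupling protein, had a log2 change of 0.54 (SE 0.32, limma, adjusted p = 0.280). Of 13 measured genes of the TIM22 import route, 1 was higher, the small chaperone Timm13 (0.54, SE 0.15, limma, adjusted p = 0.0419), and 1 was lower, the TIM22 subunit Timm29 (-0.33, SE 0.10, limma, adjusted p = 0.0473). Of 21 other mitochondrial transport genes, 1 was lower, the sideroflexin Sfxn2 (-0.49, SE 0.11, limma, adjusted p = 0.0213). The pyruvate carrier subunit Mpc1 had a change of 0.45 (SE 0.14, limma, adjusted p = 0.0530). Of 42 respiratory chain and ATP synthase subunits 11 were called higher and 0 lower, with a median log2 change of 0.27, beside 0.01 over the 37 carriers and -0.08 over all genes. With median-of-ratios scaling 24 of the 42 were called higher, where 5.91% of all genes were, at a median of 0.36. After removal of GC and length trends 1 was, where 0.68% of all genes were, at a median of -0.02. The median over all genes was 0.01 with median-of-ratios scaling and -0.10 after removal of the trends. The list's median thus lay above that of all genes each time, while its sign and the number of calls depend on the processing. The TIM22 route had 4 genes called higher with median-of-ratios scaling and 1 after removal of the trends. Of 12 genes of mitochondrial biogenesis, 1 was lower, the transcription factor subunit Gabpa (-0.62, SE 0.13, limma, adjusted p = 0.0152). In the fit without the block, none of these lists other than the clock genes, with 1 higher and 1 lower, had a call at 12 weeks.

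At 24 weeks, no member was called between NASH and control kidneys in either fit. Without the block 0 of 11614 genes were called (0% of genes), 347 genes had an unadjusted p under 0.05 and none of them was a member. With the block 1 gene, which was no member, was called (0.00861% of genes), and 1 member, Slc25a16, had an unadjusted p under 0.05. No member had NASH libraries all on one side of the control libraries, where 4.56% of all genes were all above and 2.65% all below. The members' median was -0.04 and that of all genes 0.01, with 9 of 37 members above 0. The share of all genes above 0 at 24 weeks is not given here, nor is this count under other scalings. It is therefore not read as a shift of the family.

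The 4 members with the smallest p at 24 weeks were Slc25a16, Slc25a46, Slc25a30 and Slc25a13. Slc25a16, whose yeast counterpart is linked to coenzyme A supply, was at 11.08, 10.82 and 10.68 in NASH and 11.02, 11.12 and 11.41 in control libraries (log2 change -0.32, SE 0.16, limma, adjusted p = 0.999 without the block and 0.508 with it). Slc25a46, an outer membrane protein tied to mitochondrial fission and fusion, was at 10.12, 9.78 and 9.67 in NASH and 10.21, 9.90 and 10.07 in control libraries (-0.20, SE 0.15, limma, adjusted p = 0.999 without the block and 0.562 with it); its exons share 383 bases with a gene on the other strand. The aspartate-glutamate carrier Slc25a13 was at 10.75, 10.66 and 10.82 in NASH and 10.74, 10.90 and 11.03 in control libraries (-0.15, SE 0.12, limma, adjusted p = 0.999 without the block and 0.660 with it). In all 3 the groups overlapped, and the gap was widest in replicate 3 for Slc25a16 and Slc25a46 and in replicate 2 for Slc25a13. The 27 other members reported here ran from -0.32 for Slc25a42 to 0.15 for Slc25a4 at 24 weeks and from -0.33 for Slc25a32 to 0.60 for Slc25a10 at 12 weeks. Their smallest adjusted p with the block was 0.606 at 24 weeks, for Slc25a4, and 0.0821 at 12 weeks, for the branched-chain amino acid carrier Slc25a44 (limma). The adipocyte marker sum was 9.80 to 11.28 in NASH and 11.44 to 15.02 in control libraries at 24 weeks. All 8 macrophage markers had a positive change at 24 weeks, with a median of 0.71 and sums of 12.87 to 13.48 in NASH and 11.60 to 12.78 in control libraries. All 7 erythroid markers were positive as well, with a median of 1.16 and sums of 10.77 to 12.41 in NASH and 9.77 to 11.03 in control libraries. None of these markers was called with the block, the groups did not overlap in the adipocyte and macrophage sums, and the part of these markers in the members' changes was not tested.

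The 3 carriers that were lower in NASH kidneys at 12 weeks had overlapping groups at 24 weeks. Slc25a30 was at 9.40, 9.61 and 9.93 in NASH and 9.68, 9.82 and 10.32 in control libraries at 24 weeks, and the pair differences, -0.28, -0.21 and -0.39, kept the sign of those at 12 weeks. Slc25a15 was at 11.47, 11.46 and 11.58 in NASH and 11.79, 11.39 and 11.38 in control libraries at 24 weeks. Slc25a36 was at 9.66, 9.18 and 9.24 in NASH and 10.27, 9.07 and 9.50 in control libraries at 24 weeks. The last 2 had pairs of both signs.

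**Figure D4:**
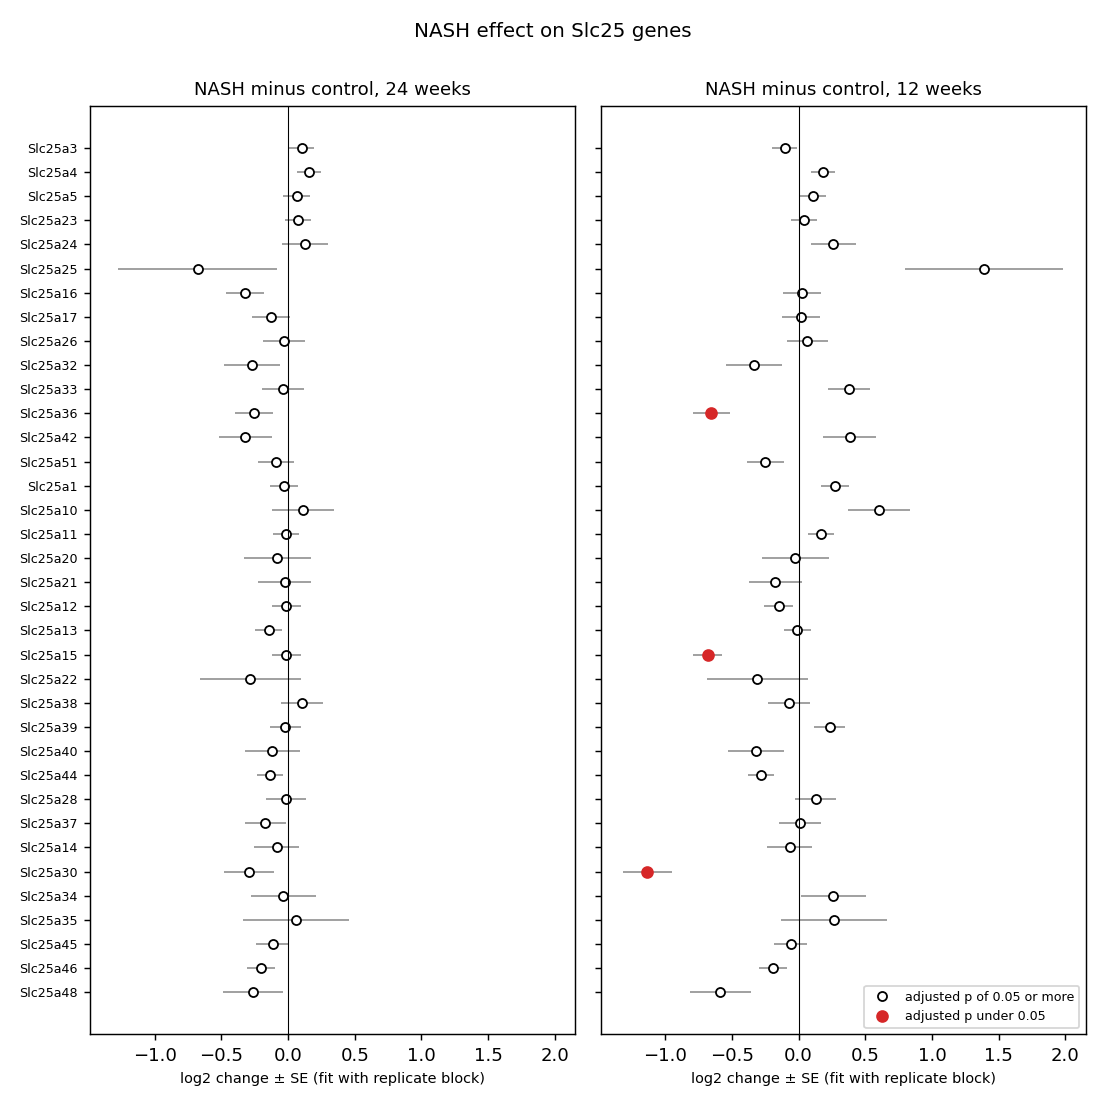
Log2 change, NASH minus control, of 36 of the 37 members at 24 weeks (left) and 12 weeks (right), as points with SE bars from the fit with the replicate block. Filled red points, Slc25a36, Slc25a15 and Slc25a30 at 12 weeks, have an adjusted p under 0.05; no member does at 24 weeks.

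Whether the NASH effect itself differed between the times was tested as the effect at 24 weeks minus that at 12 weeks. No member passed in either fit. With the block the difference was 0.67 for Slc25a15 (limma, adjusted p = 0.165), 0.84 for Slc25a30 (adjusted p = 0.259), 0.40 for Slc25a36 (adjusted p = 0.430) and -2.07 for Slc25a25 (adjusted p = 0.345). In that fit 0.00861% of all genes were called. In replicates 2 and 3 alone, where 0.629% of all genes were called, the difference was called for Slc25a15 (0.84, limma, adjusted p = 0.0417) and Slc25a25 (-2.76, adjusted p = 0.0337). The absence of the 3 carriers' calls at 24 weeks is thus not shown, over all 12 libraries, to differ from 12 weeks. Averaged over both times, Slc25a30 (-0.71, limma, adjusted p = 0.0150), Slc25a36 (-0.45, adjusted p = 0.0242) and Slc25a15 (-0.35, adjusted p = 0.0244) were called lower with the block, where 7.36% of all genes were, and 0 members without it. The 24 week changes that enter this average were -0.29 for Slc25a30, -0.25 for Slc25a36 and -0.01 for Slc25a15, none of them called. A call for the average thus does not show a change at each time. Without control replicate 3 at 24 weeks no member was called for this average, and the adjusted p of Slc25a30 came to 0.0503. The call of Slc25a15 was also lost without control replicate 1 at 24 weeks, NASH replicate 2 or control replicate 3 at 12 weeks (adjusted p up to 0.0636) and with GC and length trends removed (adjusted p = 0.0685). That of Slc25a36 was also lost without NASH replicate 1, NASH replicate 3 or control replicate 1 at 24 weeks and without NASH replicate 1, control replicate 1 or control replicate 3 at 12 weeks (adjusted p up to 0.0633).

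Between 24 and 12 weeks, no member was called in either fit, in NASH or in control mice. With the block 0.0258% of all genes were called in NASH and 0.172% in control mice. For several carriers replicates 2 and 3 differed between the times where replicate 1 did not, or differed less. They were chosen for description after their values were seen, and their values in replicates 2 and 3 are set beside those in replicate 1. The p given for replicates 2 and 3 alone thus describe these values and are no separate test of the pattern.

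Slc25a20 exchanges acylcarnitines for carnitine and so brings fatty acids to β-oxidation. Its log2 values in replicates 2 and 3 were 10.98 and 10.91 at 24 weeks and 9.51 and 9.93 at 12 weeks in NASH mice. In control mice they were 11.04 and 10.92 at 24 weeks and 9.93 and 9.54 at 12 weeks. In replicate 1 it was at 9.93 at 24 weeks and 9.81 at 12 weeks in NASH mice, and at 10.10 and 9.85 in control mice. Both later groups were thus higher in replicates 2 and 3 by about 1 log2 unit or more and nearly level in replicate 1. In replicates 2 and 3 the change was 1.22 in NASH (limma, adjusted p = 0.00347) and 1.25 in control mice (limma, adjusted p = 0.00312).

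The glutamate carrier Slc25a22 was at 9.57 and 10.38 at 24 weeks and 8.16 and 8.02 at 12 weeks in NASH replicates 2 and 3, and at 10.10 and 10.24 against 8.45 and 9.20 in those of control mice. The orphan carrier Slc25a34 was at 10.00 and 10.28 against 9.20 and 9.05 in NASH and at 9.76 and 10.24 against 8.94 and 9.18 in control mice. In both genes every one of these 24 week libraries was above every 12 week library. Replicate 1 gave no such order: Slc25a22 was at 8.25 at 24 weeks and 8.53 at 12 weeks in NASH and at 8.72 and 7.99 in control mice. Slc25a34 was at 8.59 at 24 weeks and 9.01 at 12 weeks in NASH replicate 1 and at 8.96 and 8.36 in that of control mice. Their changes were 1.88 for Slc25a22 and 1.01 for Slc25a34 in NASH mice (limma, adjusted p = 0.00462 and 0.0113), and 1.34 and 0.94 in control mice (limma, adjusted p = 0.0198 and 0.0140).

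In all, replicates 2 and 3 alone gave 4 members higher and 2 lower at 24 weeks in NASH mice, where 2.51% of all genes were higher and 2.14% lower. Beside Slc25a20, Slc25a22 and Slc25a34, the higher one was Slc25a30 (1.35, limma, adjusted p = 0.00945), and Slc25a35 was among the lower ones (-1.30, adjusted p = 0.0260). In control mice 7 members were higher and 5 lower, where 2.33% of all genes were higher and 4.17% lower. Beside Slc25a20, Slc25a22 and Slc25a34, the higher ones were Slc25a25 (3.77, limma, adjusted p = 0.000242), the coenzyme A carrier Slc25a42 (1.08, adjusted p = 0.00537), the dicarboxylate carrier Slc25a10 (1.02, adjusted p = 0.00793) and the peroxisomal Slc25a17 (0.55, adjusted p = 0.0147). The lower ones included Slc25a15 (-0.48, adjusted p = 0.0289), the NAD carrier Slc25a51 (-0.51, adjusted p = 0.0380), Slc25a35 (-1.09, adjusted p = 0.0449) and the glycine carrier Slc25a38 (-0.64, adjusted p = 0.0491). The 12 week NASH and control libraries that serve here also serve the comparison of NASH with control.

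Slc25a25 spanned the widest range of any member, and it was control mice that spanned it. It was at 10.72, 13.002 and 13.15 in control libraries at 24 weeks and at 10.46, 9.70 and 8.91 in control libraries at 12 weeks. In NASH mice it was at 10.996, 12.50 and 11.35 at 24 weeks and 11.43, 10.80 and 11.02 at 12 weeks. Replicate 1 lay between 10.46 and 11.43 in all 4 groups, while control replicates 2 and 3 held both the highest and the lowest values. Clock genes also differ between these libraries, Dbp being at 7.86 and 8.01 in control replicates 2 and 3 at 24 weeks and 5.19 and 3.54 in those at 12 weeks, and their part was not tested.

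**Figure D5:**
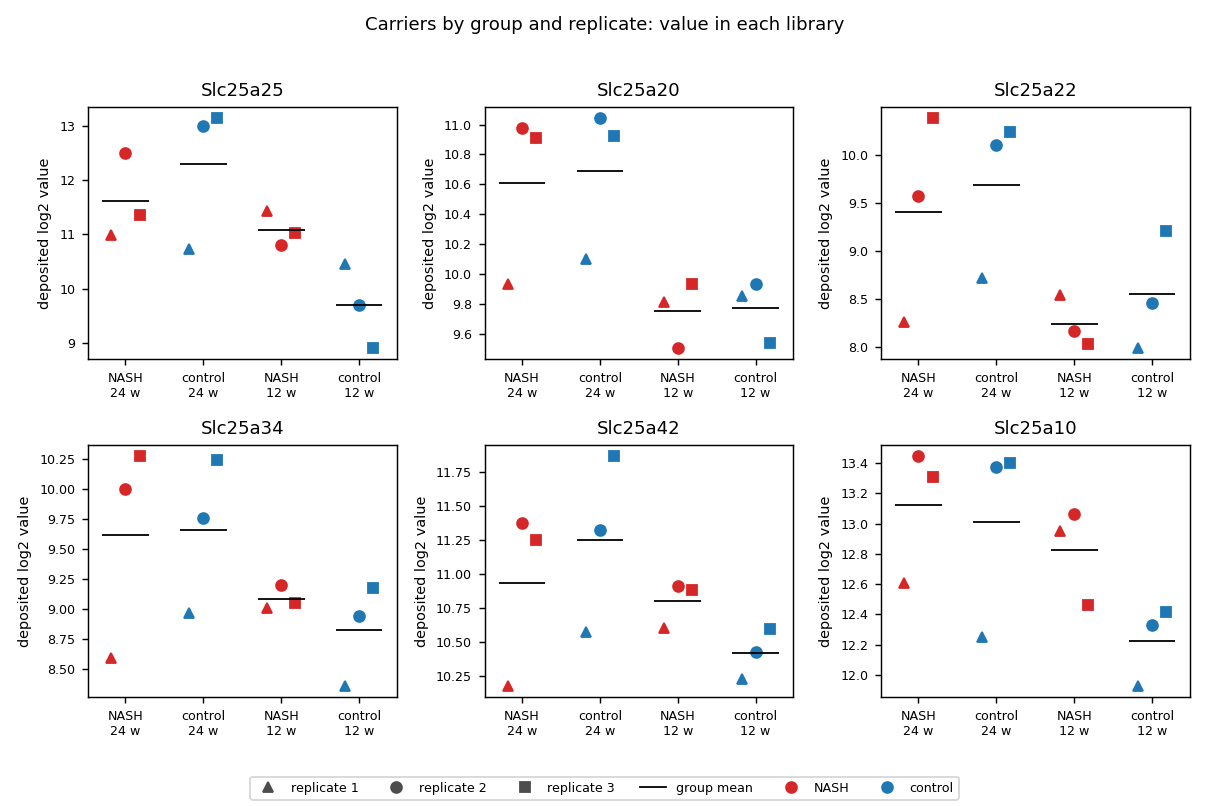
Log2 value of 6 carriers in each library, with group means as lines; triangles are replicate 1, circles replicate 2 and squares replicate 3, red NASH and blue control. Circles and squares at 24 weeks lie above those at 12 weeks in both NASH and control mice for Slc25a20, Slc25a22 and Slc25a34, while triangles at 24 weeks lie near or below those at 12 weeks in NASH mice and above them in control mice.

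Replicate 1 differed from replicates 2 and 3 in more of the family, as it did in many genes. The mean of replicate 1 minus that of the others was 1.21 log2 units for Slc25a35, -0.89 for Slc25a22 and -0.85 for Slc25a34, the first 3 by size. At 24 weeks Slc25a35 was at 8.54 in NASH and 8.72 in control replicate 1, against 6.85 and 6.54 in NASH and 6.73 and 6.30 in control replicates 2 and 3. At 12 weeks it was at 8.20 in NASH and 8.18 in control replicate 1, against 7.63 and 8.36 in NASH and 7.60 and 7.61 in control replicates 2 and 3, so that the gap was seen at 24 weeks more than at 12. The exons of Slc25a35 share 1151 bases with Rangrf on the other strand.

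For 5 members, Slc25a3, Slc25a4, Slc25a12, Slc25a23 and Slc25a24, all 4 replicate 1 libraries lay above all 8 others, where 15% of all genes did, and for 1 member, Slc25a39, all lay below, where 4.21% did. Of the reads of Slc25a4 and Slc25a5 together, the share of Slc25a4 was 21.4% to 23.9% in replicate 1, against 14.7% to 19.6% elsewhere. No test was made of this split, since the labels do not say what the replicate number stands for. Xist and Ddx3y divide the libraries in the same way.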

How the data were processed

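RNA from mouse kidney cortex was sequenced in 12 libraries, 3 in each of 4 groups taken from the sample titles. The deposited values are log2 values of 11614 genes per library on RefSeq gene models, and the column names call them normalized; per the submitters' processing notes BWA, limma and build mm10 were used, with no version or role. Below 60 steps, 86.2% to 91.1% of a library's values were whole multiples of 1 step (within 0.01 steps), from which depth was estimated. How the authors set the step is not stated, and genes that do not reach 100 scaled reads in any library are not in the files.

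The deposited log2 values were fitted with limma 3.58.1 (R 4.3.3), with 4 group means over 12 libraries, a mean-variance trend, 2-sided tests and Benjamini-Hochberg adjustment over all genes. The script was tested on simulated data. Replicate numbers are in the titles. All 18 same-numbered pairs of libraries correlated above 0.1 in their deviations from the group means, from 0.19 to 0.74, so a fit with the number as a block is given too. Replicates 2 and 3 also correlated with each other across groups, from 0.19 to 0.64, and replicate 1 with either at -0.70 to -0.27. Same-numbered pairs lay no higher, at 0.26 to 0.53 for number 2 and 0.19 to 0.64 for number 3. The correlations thus set replicate 1 apart, but do not show that libraries numbered 2 or 3 belong in pairs. The block and the same-numbered pair differences take that pairing as given. Alternatives were other scalings, filters, a pseudocount, removal of GC and length trends, and leaving out libraries. Values in every library are given for members called in either fit and for the 4 with the smallest p for NASH against control at each time. The values of 1 member are not reported here. The members and lists were chosen with earlier results of these data known. Tables came from pandas 2.3.3 and numpy 2.4.6 under Python 3.11.15, plots from matplotlib 3.10.9, and exonic overlaps from GENCODE M21.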

Additional observations from a re-analysis of the deposited data

Results flagged for a closer look

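In replicates 2 and 3 alone, the difference of the NASH effects between the times was called in 2 members. This subset holds 2 libraries per group and leaves out replicate 1, which stood apart. Its libraries are also in the fits over all 12, so it is no separate test. The effect at 24 weeks minus that at 12 weeks was 0.84 for Slc25a15 (SE 0.15, limma, adjusted p = 0.0417) and -2.76 for Slc25a25 (SE 0.46, limma, adjusted p = 0.0337), where 0.629% of all genes were called. For Slc25a15 the NASH minus control pair differences were 0.07 and 0.20 at 24 weeks and -0.73 and -0.69 at 12 weeks in replicates 2 and 3, and for Slc25a25 they were -0.51 and -1.80 at 24 weeks and 1.10 and 2.11 at 12 weeks. In replicate 1 the effects were -0.31 at 24 weeks and -0.62 at 12 weeks for Slc25a15, and 0.27 and 0.97 for Slc25a25. With all 12 libraries neither difference passed the test (limma, adjusted p = 0.165 for Slc25a15 and 0.345 for Slc25a25 with the block).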

How the results depend on the processing

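The count of members called depended on the use of the replicate number. For NASH against control at 12 weeks it was 0 without the block and 3 with the replicate block, 3 with the block after removal of GC and length trends, 4 with the block and median-of-ratios scaling (3 lower and 1 higher, Slc25a1), 3 with the block and quantile normalization, 3 in replicates 2 and 3 alone, and 2 to 4 with the block when 1 library was left out. Over all genes, the block with the deposited scaling gave 350 higher and 1144 lower calls (3.01% and 9.85%), and 686 higher and 693 lower with median-of-ratios scaling. In replicates 2 and 3 alone the 3 members were Slc25a15 and Slc25a30, lower, and Slc25a25, higher, without Slc25a36. There 0.818% of all genes were higher and 2.5% lower. Shares over all genes are not given here for quantile normalization or with 1 library left out, so those counts are not read as results about the members. For the average over both times, where 7.36% of all genes were lower with the block, the count of members called was 3 with the block, 2 with GC and length trends removed, 3 with median-of-ratios scaling, 3 with quantile normalization and 0 to 5 with 1 library left out. For the difference of the effects it was 2 in replicates 2 and 3 alone. For 24 against 12 weeks it was 6 in NASH and 12 in control mice in replicates 2 and 3 alone, and with the block and 1 library left out 0 to 2 in NASH and 0 to 5 in control mice, the highest without control replicate 1 at 24 weeks. At 24 weeks it was 0 in each of these. Without the block, leaving out any library, filters, pseudocount, scaling or the prior gave 0 members in each comparison. Of 43 changes of named members 5 turned their sign in some alternative. With GC and length trends removed, Slc25a1 at 12 weeks was at -0.032, against 0.27 in the deposited scaling, and Slc25a15 at 24 weeks at 0.022. Slc25a15 at 24 weeks was at 0.14 in replicates 2 and 3 alone, and with the block at 0.046 without control replicate 1 and 0.125 without NASH replicate 1, both of 24 weeks. When 1 library was left out with no block, the changes at 24 weeks ran from -0.085 to 0.119 for Slc25a15, from -0.525 to 0.072 for Slc25a36, from -0.031 to 0.382 for Slc25a4 and from -0.66 to 0.058 for Slc25a42. None of these 5 changes was called without the block. Of 1541 recomputed values 114 passed the test where the value without the block did not. The 43 changes were named in part because they passed with the block or in replicates 2 and 3 alone. The counts of passes and of turned signs are thus no rates for the family. The cause of the differences between the fits was not tested. The fits restricted to the compared libraries have no value for the difference or the average, which use all 12. Estimated depth was 7170000 to 14100000 reads, and its bearing on which changes could be called was not tested.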
